A study of Sus scrofa with 45 samples.

Results

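White blood cells of miniature pigs that had eaten a diet high in fat and cholesterol (HFCD) for 27 weeks were compared with those of pigs on control feed. The arrays were chosen by their titles, which name the white blood cell, the diet and the feeding period: 4 HFCD and 4 control arrays, 8 of the 45 arrays of the series. The animals were male Clawn miniature pigs that, by the study's methods, were 12 weeks old when feeding began. Controls ate standard dry feed, and the HFCD held 15% lard and 2% cholesterol. A related diet with sucrose besides (HFCSD, 37% sucrose) also has 4 white blood cell arrays at 27 weeks, which helped to estimate the spread of each probe and were compared with HFCD. The methods name 5 pigs per diet, so at least 1 pig of each diet has no white blood cell array. RNA came from leukocytes held back on a LeukoLock filter, so each array reads the mixture of all leukocyte types in the blood of 1 animal. The study asked how blood cell expression responds to diets that raise blood lipids. The number of arrays limits the precision of every value given here.

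Leukocytes balance the cholesterol they take up and make. When sterols build up in a cell, the receptor LXR is switched on by oxidised sterols and raises transporters such as ABCA1 that hand cholesterol to lipoproteins outside, while the factor SREBP2 is held back and the enzymes of sterol synthesis are made less. Leukocytes also respond to interferons, which raise antiviral effectors and the machinery that presents peptides on MHC molecules.

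Each value is a log2 normalized intensity of 1 probe on 1 array, or a difference between such values, HFCD minus control. A probe counts as measured on an array where the scanner software marked its spot as well above background, and 43.4% to 50.9% of the spots were so marked on the 8 arrays. Genes of the leukocyte types were measured: of the listed markers with a probe, 9 of 10 neutrophil genes, 14 of 18 monocyte and macrophage genes, 11 of 12 T cell genes, 4 of 4 B cell genes and 4 of 4 NK and cytotoxic cell genes were well above background on all 8 arrays. Of the liver markers, 6 of 21 genes were so on all 8 arrays, among them HP and TF, and 10 on no array, among them ALB. Of the skeletal muscle markers, 5 of 20 were so on all 8 arrays, among them DES and TTN, and 10 on no array, among them CKM and MB.

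A pair of arrays, control 1 and HFCD 2, stood apart from the other 6 in genes of platelets and red cells. The summed intensity of the platelet genes was 2876, 85355, 87153 and 99940 on control arrays 1 to 4, and 47946, 1467, 23011 and 66854 on HFCD arrays 1 to 4. The brightest probe of that list, for the platelet chemokine PF4, read 10.30, 14.09, 14.07 and 14.07 in the controls and 13.99, 9.17, 12.94 and 13.93 under HFCD. Control 1 and HFCD 2 were thus far below the rest, and among the other 6 arrays the HFCD arrays lay below the controls. The von Willebrand factor gene VWF, whose product tethers platelets to the vessel wall, had the same order, at 6.87, 12.33, 12.43 and 13.26 in the controls and 11.06, 5.20, 9.96 and 12.23 under HFCD.

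The red cell genes were lowest on the same pair of arrays. Their summed intensity was 432, 18656, 28190 and 28107 in the controls and 13833, 462, 8345 and 22111 under HFCD, with HBE1, a globin gene, as the brightest. Of the 3 red cell genes with a probe, HBA and TFRC were well above background on no array, so HBE1 alone carries that sum. Across the array, 414 of the 17022 probes that were measured on all of the other 6 arrays lay lower by more than 1 on both control 1 and HFCD 2, and 29 of the 18952 measured on both lay higher by more than 1 than all 6. The leukocyte filter is meant to let platelets and red cells pass, and how much of them was carried over into each sample was not measured. In whole-mixture RNA, fewer cells of a type and less RNA per cell cannot be told apart either. Since 1 of the low arrays is in each group, results are given with all arrays and, for part of them, also without both, list medians then being over the probes tested with all arrays unless said otherwise.

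Over all probes, the diet groups differed little: the median change over 18125 tested probes was 0.02, with quartiles of -0.17 and 0.19. With limma and Benjamini-Hochberg adjustment at 0.05, 4 probes (0.0221%) rose under HFCD and 1 (0.00552%) fell. At an unadjusted limma p under 0.05, 528 probes (2.91%) were higher and 327 (1.8%) lower. Both directions together made 855 probes, which became 1488 without control 1 and 580 without control 2. Where no gene changes, a share of about 0.05 is expected to pass, and 2.91% and 1.8% together lie below that. On 342 probes (1.89%) every HFCD array lay above every control array, and on 181 (0.999%) every one lay below. With 4 arrays per group, some probes have groups apart by chance alone, so lack of overlap does not by itself mark a change. With the study's limits, a fold over 2 or under 0.5 and p under 0.05, taken here as the p of the methods' t-test with no adjustment and on the tested probes, 82 probes (0.452%) were higher and 36 (0.199%) lower. That split depended on single arrays and on the background step: 92 were higher and 154 lower without control 1, 43 and 33 without HFCD 2, 57 and 107 without both, and 47 and 3 with normexp. With the weaker presence flag of the software, which tests more probes, 129 were higher and 92 lower. With only probes well above background on every array of both groups, 68 were higher and 19 lower.

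The clearest change was a rise of ABCA1, the transporter that moves cholesterol out of the cell. Its probe, named by the similarity of its sequence to the mouse gene, read 9.75, 10.03, 10.25 and 10.24 in the controls and 12.25, 12.66, 12.57 and 12.46 under HFCD. The gap between the groups was far wider than the range within either. The change was 2.42 (SE 0.18; limma adjusted p = 0.000201), higher in 4 of 4 HFCD arrays. Each slide held 1 or 2 arrays of each diet, so within-slide values here and below rest on few arrays. With slide as a block the ABCA1 change was 2.41, within the 3 slides it was 2.41, 2.32 and 2.57, and without control 1 and HFCD 2 it was 2.25. It passed adjustment in all 14 other settings tried and without any 1 of the 12 white blood cell arrays.

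SQLE, squalene epoxidase, an early oxygen-using and rate-controlling enzyme of cholesterol synthesis, fell. Its well-measured probe read 7.57, 7.78, 7.63 and 7.09 in the controls and 6.12, 6.33, 5.94 and 5.76 under HFCD. The lowest control, array 4, was still above the highest HFCD array. The change was -1.48 (SE 0.21; limma adjusted p = 0.0383), lower in 4 of 4 HFCD arrays, and -1.49 with slide as a block, or -1.30, -1.84 and -1.39 within the slides. With normexp and an offset of 50, which shrinks differences between dim spots, it was -0.82. Its size held from -1.62 to -1.38 without any 1 array, but the adjusted p did not: it passed only without control 4 or without HFCSD 2, in 2 of 12 such fits, with p up to 0.235 in the others. It passed in 7 of 14 other settings, and with slide as a block or without control 1 and HFCD 2 it did not. The other SQLE probe was well above background on 1 control array and no HFCD array.

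The sterol synthesis list, SQLE included, was mostly lower. Of 7 tested probes of 5 genes, 6 were lower at an unadjusted p under 0.05 and none higher, beside 1.8% and 2.91% of all probes. The median change was -0.83 beside 0.02 over all probes, and -0.41 with normexp. Of the 7 probes, 4, for CYP51, MSMO1 and SQLE, were well above background on all 8 arrays. The others could pass the presence filter through 1 group alone, so the count and the median rest partly on that filter. The list's median deviation from the control mean was 0.19, 0.26, 0.11 and -0.74 on the control arrays and -0.78, -0.42, -0.90 and -1.15 on the HFCD arrays, so control 4 lay below HFCD 2 and the groups overlapped. CYP51, which removes a methyl group from lanosterol, read 4.74, 5.23, 5.71 and 4.72 in the controls and 4.29, 4.68, 3.34 and 3.99 under HFCD on its dimmer probe. Control 4 and HFCD 2 nearly touched there, and 3 of the 4 HFCD arrays were well above background. The change on this probe, which passed the presence filter through the controls alone, was -1.03 (SE 0.32), or -0.30 with normexp. It was -0.78 (SE 0.28) on the brighter CYP51 probe, where HFCD 1 and HFCD 2 lay above control 4. Both probes missed adjustment (limma adjusted p = 0.934 and 0.976).

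The 2 tested probes of MSMO1, a sterol demethylation enzyme, were lower at an unadjusted p under 0.05, with overlapping groups, while HMGCS1, which makes the HMG-CoA at the head of the pathway, did not pass in either direction. The list's median was -0.86 with slide as a block, -0.62, -1.30 and -0.71 within the slides, and -0.85 without control 1 and HFCD 2, where 4 of its probes were lower at an unadjusted p under 0.05.

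The LXR list, which holds LXR targets, cholesterol efflux genes and genes of the receptors themselves, was mixed. Of 12 tested probes of 8 genes, 3 were higher at an unadjusted p under 0.05 and none lower, beside 2.91% and 1.8% of all probes. The median was 0.30 (0.14 with normexp, 0.10 with no filter on dim probes and 0.36 without control 1 and HFCD 2), and ABCA1 alone passed adjustment. With slide as a block the list's median was 0.26, and within the slides it was -0.02, 0.42 and 0.37. NR1H3, which encodes LXR alpha itself, read 7.16, 7.52, 7.29 and 7.58 in the controls and 8.0, 8.21, 8.67 and 8.23 under HFCD on a probe named by similarity. All 4 HFCD arrays lay above all controls. The change was 0.89 (SE 0.23; limma adjusted p = 0.657), 0.90 with slide as a block, and the other 2 NR1H3 probes gave 0.60 (SE 0.26) and 0.41 (SE 0.34) with overlapping groups. FASN, the fatty acid synthase, was 0.50 (SE 0.29) higher on its brighter tested probe and 0.30 (SE 0.17) on the dimmer, with overlap on both, and 0.16 and 0.09 without control 1 and HFCD 2. ABCG5, ABCG8, CYP27A1 and LPL, also of this list, were well above background on no array.

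Sterol uptake and sensing genes, such as the LDL receptor and the SREBP escort SCAP, showed no probe of 16 at an unadjusted p under 0.05, with a median of -0.18, while without control 1 and HFCD 2, 3 probes were lower and the median was -0.23. The largest change among them was in CD36, a scavenger receptor that is also abundant on platelets. One CD36 probe read 6.70, 9.10, 9.14 and 8.39 in the controls and 8.44, 5.03, 7.12 and 7.65 under HFCD, a change of -1.27 (SE 0.71), which was -0.59 without HFCD 2 alone and -1.81 without control 1 alone. The lowest values were on control 1 and HFCD 2, as for the platelet genes, and the part of platelet genes in the CD36 values was not tested. Fatty acid synthesis, storage and oxidation genes had no probe of 47 at an unadjusted p under 0.05 and a median of 0.06. In that list PLIN2, which coats lipid droplets, read 5.39, 5.39, 5.59 and 5.53 in the controls and 5.91, 5.70, 6.33 and 5.82 under HFCD, with no overlap and a change of 0.46 (SE 0.25), or 0.19 with normexp.

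**Figure D1:**
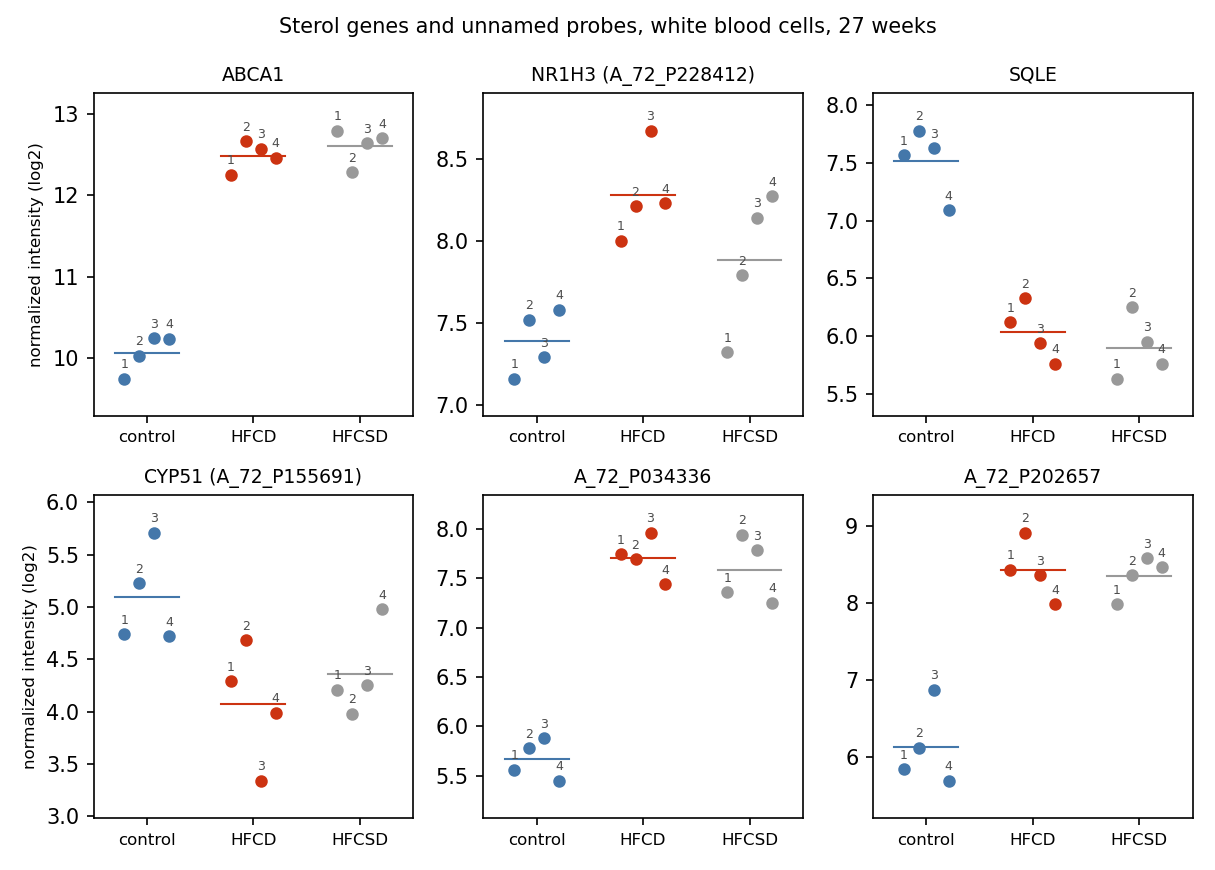
Normalized intensity (log2) of probes for ABCA1, NR1H3, SQLE and CYP51 and of 2 probes without a gene name, with points numbered by array, lines at the group means, and HFCSD arrays in grey. For ABCA1 the controls lie between 9.75 and 10.25 and the HFCD arrays between 12.25 and 12.66.

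The other 3 probes that rose carry no gene name. A_72_P034336 read 5.56, 5.78, 5.88 and 5.45 in the controls and 7.74, 7.69, 7.96 and 7.44 under HFCD, a change of 2.04 (SE 0.20; limma adjusted p = 0.00197), higher in 4 of 4 HFCD arrays. A_72_P202657 read 5.84, 6.12, 6.87 and 5.69 in the controls and 8.43, 8.91, 8.36 and 7.98 under HFCD, a change of 2.30 (SE 0.27; limma adjusted p = 0.0136), also higher in 4 of 4. Control 3 was the highest control of both, and neither probe's groups overlapped. With slide as a block the changes were 2.06 and 2.26, and within the slides 1.81, 1.81 and 2.46 for A_72_P034336 and 2.05, 2.09 and 2.60 for A_72_P202657. A_72_P034336 passed adjustment in all 14 other settings and all 12 fits without 1 array, with a change of 1.22 at the lowest, under normexp. A_72_P202657 passed in 10 of 14 and 6 of 12, and lost its call without control 1, 2 or 4 or HFCD 1, 2 or 3, and over all 12 such fits the change lay between 2.13 and 2.54 and the adjusted p reached 0.0825. Without both control 1 and HFCD 2 its change was 2.04 and it did not pass. The files describe A_72_P034336 by a partial match to a protein fragment of another species and A_72_P202657 as a pig cDNA, so the sequences of both probes are printed, with that of ABCA1, whose name rests on similarity.
ABCA1: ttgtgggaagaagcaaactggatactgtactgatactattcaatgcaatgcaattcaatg
A_72_P034336: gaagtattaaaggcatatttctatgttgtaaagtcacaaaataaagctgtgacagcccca
A_72_P202657: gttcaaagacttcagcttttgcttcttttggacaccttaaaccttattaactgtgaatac

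Interferon-induced genes had mostly higher values under HFCD, and none passed adjustment. Of 50 tested probes of 26 genes, 24 were higher at an unadjusted p under 0.05 and none lower, beside 2.91% and 1.8% of all probes, and the median change was 0.76. On 7 of the 50 every HFCD array lay above every control array, beside 1.89% of all probes, so the groups overlapped on most of the list. With slide as a block the median was 0.84, within the slides it was 1.39, 0.74 and 0.77, and without control 1 and HFCD 2 it was 0.75, with 20 probes higher at an unadjusted p under 0.05. The list's median deviation from the control mean was 0.70, -0.28, 0.17 and -0.62 on the control arrays and 0.41, 1.40, 0.77 and 0.59 on the HFCD arrays. Control 1 therefore lay above HFCD 1 and HFCD 4, and HFCD 2 was the highest of all.

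Among the effectors, ISG20, an exonuclease that degrades viral RNA, read 11.63, 9.85, 11.27 and 9.76 in the controls and 11.76, 13.45, 13.24 and 12.45 under HFCD on a probe named by similarity. HFCD 1 was just above control 1, and the other HFCD arrays were well clear of all controls. The change was 2.10 (SE 0.46; limma adjusted p = 0.553), higher in 4 of 4 HFCD arrays, and 2.26 with slide as a block. MX2, a dynamin-like antiviral GTPase, read 8.36, 7.37, 8.43 and 7.75 in the controls and 8.54, 11.10, 9.98 and 9.65 under HFCD. HFCD 2 stood highest and HFCD 1 barely passed control 3, and the change was 1.84 (SE 0.46), or 1.75 (SE 0.44) on the second MX2 probe. RSAD2 (viperin), which blocks viral replication and which the study lists for HFCD in white blood cells, read 9.0, 7.39, 9.42 and 8.16 in the controls and 8.98, 11.94, 11.27 and 11.43 under HFCD. Here 3 HFCD arrays were above all controls while HFCD 1 lay below control 1 and control 3, and the change was 2.41 (SE 0.58; limma adjusted p = 0.634). GVIN1, a very large interferon-inducible GTPase named by similarity, was 1.32 (SE 0.41) higher with no overlap between the groups.

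A regulator of the response followed the same arrays. IRF7, which switches on the interferon genes, read 12.80, 11.45, 12.49 and 11.78 in the controls and 12.88, 14.05, 13.78 and 13.44 under HFCD. HFCD 1 was again close to control 1, with no overlap, and the change was 1.41 (SE 0.33; limma adjusted p = 0.634). Its other probe gave 1.24 (SE 0.32), with HFCD 1 below control 1. Against the direction of the list, 10 of its 50 probes had negative changes, all for OAS1, OAS2, IRF9 and TAP1, and an OAS2 probe was the lowest of the list at -1.49.

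Of the chemokines, CXCL10 and CCL8 had higher means under HFCD and missed adjustment. CXCL10, which draws in T cells through CXCR3, read 9.02, 8.22, 10.78 and 7.70 in the controls and 9.63, 14.09, 11 and 11.30 under HFCD on its brighter probe. HFCD 1 lay below control 3, and HFCD 2 was far above every other array. The change was 2.57 (SE 0.93; limma adjusted p = 0.976), and 1.74 without control 1 and HFCD 2. CXCL10's dimmer probe, well above background on 3 of 4 controls and 4 of 4 HFCD arrays, gave 3.03 (SE 1.12), or 1.42 with normexp. It passed the presence filter through the HFCD arrays alone, so the size of its change is uncertain. CCL8, which attracts monocytes and whose probe was named by similarity, read 6.47, 5.60, 7.54 and 6.0 in the controls and 7.86, 9.87, 8.83 and 7.65 under HFCD. Control 3 came close to HFCD 4 without overlap, and the change was 2.15 (SE 0.49; limma adjusted p = 0.553), 2.34 with slide as a block and 1.73 without control 1 and HFCD 2.

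**Figure D2:**
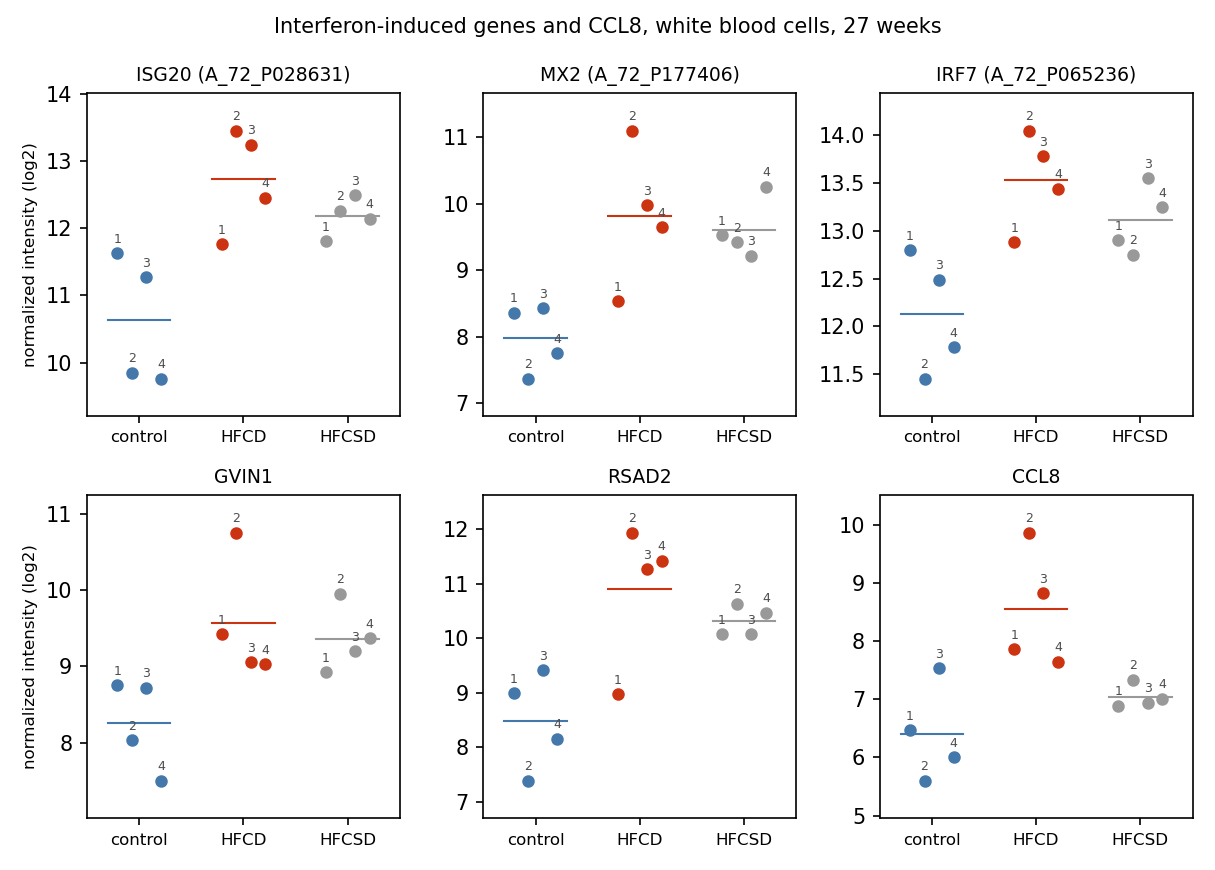
Normalized intensity (log2) of probes for the interferon-induced genes ISG20, MX2, IRF7, GVIN1 and RSAD2 and for the chemokine CCL8, with points numbered by array, lines at the group means, and HFCSD arrays in grey. RSAD2 is the only one of the 6 probes whose control and HFCD arrays overlap, with HFCD 1 at 8.98 below control 3 at 9.42. Groups apart were a ground for naming probes, so the lack of overlap in the other panels is not a result.

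Antigen presentation genes were higher on part of their probes. The MHC class II list, which holds the molecules that show peptides to helper T cells, had 14 tested probes of only 5 genes. Of these probes 7 were higher at an unadjusted p under 0.05 and none lower, beside 2.91% and 1.8% of all probes. All 14 changes were positive, with a median of 0.48 beside 0.02 over all probes. Several probes read the same gene, so they are not separate members. With slide as a block the median was 0.52, within the slides it was 0.70, 0.27 and 0.51, and without control 1 and HFCD 2 it was 0.37, with 0 probes at an unadjusted limma p under 0.05. SLA-DQB1, a class II beta chain, read 12.08, 13.57, 13.56 and 13.68 in the controls and 13.95, 14.41, 14.73 and 14.60 under HFCD. Control 1 was far below the other controls, and the change was 1.20 (SE 0.53) with all arrays and 0.82 without control 1 and HFCD 2. SLA-DRA, the class II alpha chain, had 4 tested probes with changes of 0.56 to 0.68, and on 3 of them the groups did not overlap, and of 0.36 to 0.40 without control 1 and HFCD 2.

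Class I and peptide loading genes had 31 tested probes of 13 genes. At an unadjusted p under 0.05, 9 were higher and none lower, beside 2.91% and 1.8% of all probes. Their median was 0.08 with all arrays and 0.31 without control 1 and HFCD 2, where 2 probes were higher. The CD1 molecule PCD1B, which presents lipid antigens and which the study lists for this diet, read 4.50, 3.84, 4.72 and 4.40 in the controls and 6.38, 6.25, 4.81 and 6.47 under HFCD. HFCD 3 was barely above control 3, while the other HFCD arrays were well above all controls. The change was 1.61 (SE 0.60; limma adjusted p = 0.976), 1.53 with slide as a block, 0.61 with normexp, and within the slides 1.53, 2.58 and 0.37. CD1D, which presents lipids to natural killer T cells, was 0.65 (SE 0.22) higher with no overlap on its brightest probe, and 0.23 and 0.15 higher with overlap on the other tested probes. PSME2, a subunit of the proteasome cap that interferon raises, was 0.65 (SE 0.18) and 0.46 (SE 0.18) higher on its 2 probes without overlap. The 3 probes of PSMB10, an immunoproteasome subunit, were 0.41 to 0.56 higher. All proteasome subunits together had 7 of 24 tested probes higher at an unadjusted p under 0.05, none lower, and a median of 0.30 (0.22 with 1 probe higher without control 1 and HFCD 2). PSMB8, PSMB9, PSMB10, PSME1 and PSME2 are in the class I list too. PSMB8, PSMB9 and PSMB10 are also in the interferon list, so the counts of these lists share probes.

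A pair of genes of complement, the protein cascade that tags and lyses targets, was among the named probes with higher values under HFCD and groups apart, neither passing adjustment, and no list of complement genes was drawn up. C1R, a protease of the first complement complex, read 8.78, 8.31, 8.82 and 8.87 in the controls and 9.68, 10.48, 10.52 and 9.59 under HFCD. C2, the protease that C1 cleaves next, read 9.27, 9.18, 9.09 and 9.78 in the controls and 10.44, 10.77, 10.67 and 10.25 under HFCD. For both genes all 4 HFCD arrays lay above all controls. The changes were 1.37 (SE 0.27) and 1.20 (SE 0.24), each with limma adjusted p = 0.317, and 1.52 and 1.28 with slide as a block. Of the 2364 tested probes with 1 gene symbol, 62 had groups apart and an unadjusted p under 0.05, 48 of them higher and 14 lower under HFCD.

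Inflammatory signals beyond these were mixed. The cytokine, chemokine and receptor list had 4 of 45 tested probes higher and 1 lower at an unadjusted p under 0.05, beside 2.91% and 1.8% of all probes. Its median was 0.06, or 0.16 without control 1 and HFCD 2. IL10, which dampens inflammation, read 7.73, 6.71, 8.02 and 6.51 in the controls and 8.13, 9.90, 8.12 and 7.52 under HFCD. Control 3 was above HFCD 4, and HFCD 2 was the highest array. The change was 1.17 (SE 0.52), and 0.84 without control 1 and HFCD 2. IL18, a cytokine that stimulates interferon gamma production, read 11.75, 10.44, 10.99 and 9.68 in the controls and 9.69, 8.82, 10.16 and 8.89 under HFCD, a change of -1.32 (SE 0.51) with overlap at control 4, or -0.79 without control 1 and HFCD 2. NFKBIA, the inhibitor that holds NF-kappa B in the cytoplasm, was 0.65 to 0.96 higher on 3 probes, all with overlapping groups, and the probe at 0.83 was at 0.52 without HFCD 2 and 0.53 without control 4.

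Toll-like receptors and their adaptors had 3 of 20 tested probes higher at an unadjusted p under 0.05, beside 2.91% of all probes, and a median of -0.02. TLR8, an endosomal sensor of single-stranded RNA, was 0.87 (SE 0.35) higher, with control 1 above HFCD 4. CASP1, the protease that matures IL1B and IL18, read 11.41, 10.62, 10.73 and 10.61 in the controls and 11.43, 11.99, 11.55 and 11 under HFCD. Control 1 stood far above the other controls on this probe, and the change was 0.65 (SE 0.29). CD14, the lipopolysaccharide co-receptor of monocytes, differed by -0.68 (SE 0.39) and -0.60 (SE 0.43) on its 2 probes, with overlap on both, and by -0.33 and -0.20 without control 1 and HFCD 2.

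Fewer named probes were lower with groups apart, and HFCD 2 was the lowest HFCD array on those of MBP, ANG, MAOA, KLF7 and LIMK1. MBP, the myelin basic protein gene, whose golli transcripts are made in leukocytes, read 9.84, 9.97, 10.10 and 10.02 in the controls and 9.57, 7.90, 8.86 and 9.55 under HFCD. HFCD 1 and HFCD 4 lay just under the controls and HFCD 2 far under. Its 3 probes gave changes of -1.01 (SE 0.33), -0.99 (SE 0.35) and -0.85 (SE 0.24), and of -0.71, -0.66 and -0.78 without control 1 and HFCD 2. Without HFCD 2 alone they were -0.66, -0.59 and -0.68. ANG (angiogenin), a secreted ribonuclease that promotes vessel growth, read 11.81, 12.22, 12.59 and 12.36 in the controls and 11.68, 10.65, 11.15 and 11.70 under HFCD. HFCD 2 was again lowest, and the groups were apart by a narrow margin at control 1. The 2 ANG probes gave changes of -0.95 (SE 0.29) and -0.92 (SE 0.28), each with limma adjusted p = 0.902, and of -0.88 and -0.80 without control 1 and HFCD 2.

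MAOA, which oxidises serotonin and other monoamines, read 7.15, 6.31, 6.34 and 6.47 in the controls and 5.78, 4.98, 6.24 and 5.39 under HFCD. HFCD 3 nearly reached control 2, and the change was -0.97 (SE 0.36), or -0.57 without control 1 and HFCD 2. LIMK1, a kinase of actin turnover named by similarity, differed by -0.73 (SE 0.25) with all arrays and -0.42 without that pair. KLF7, a zinc finger transcription factor, differed by -0.94 (SE 0.31), with HFCD 2 the lowest and 3 of 4 HFCD arrays well above background, and by -0.58 without HFCD 2. Its probe passed the presence filter through the controls alone, and with normexp the change was -0.33. NDRG2, a member of the N-myc downstream regulated family, differed by -0.83 (SE 0.23), or -0.13 with normexp. It passed the presence filter through the controls alone and was well above background on 1 of 4 HFCD arrays. Its level under HFCD, and so the size of the difference, is poorly known.

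Of the housekeeping and stress lists in this paragraph, heat shock proteins and chaperones had the largest share of probes at an unadjusted p under 0.05, 22.7%. Over all probes 2.91% were higher and 1.8% lower, and the proteasome subunits given above had a larger share, 29.2%. Cytosolic ribosomal proteins had 3 of 79 tested probes higher at that p and a median of 0.22, with 68 changes positive and 8 probes (beside 1.89% over all probes) with every HFCD array above every control and none past adjustment, and the respiratory chain and ATP synthase none of 38 and 0.20. Glycolysis had none of 9 and a median of 0.01 (-0.06 without control 1 and HFCD 2), and antioxidant enzymes 1 of 28 lower and -0.07. The heat shock list had 3 of 22 higher and 2 lower, with a median of 0.25, and the pair of lower probes was for HSP70.2, an inducible chaperone. One of them read 9.08, 10.10, 9.76 and 10.07 in the controls and 9.53, 8.95, 8.37 and 9.23 under HFCD. Control 1 lay below HFCD 1 and HFCD 4, and the other controls lay above every HFCD array. The 2 probes gave changes of -0.73 (SE 0.33) and -0.95 (SE 0.37), the latter -0.36 with normexp.

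Proliferation genes had 2 of 16 tested probes higher at an unadjusted p under 0.05, beside 2.91% of all probes. Their median was 0.44, or 0.29 without control 1 and HFCD 2. TOP2A, a topoisomerase of dividing cells, read 6.59, 7.18, 7.75 and 7.52 in the controls and 7.63, 8.59, 8.04 and 7.87 under HFCD. HFCD 1 lay below control 3, and the change was 0.78 (SE 0.29), or 0.36 without control 1 and HFCD 2. CCND2, a cyclin that drives entry into S phase, was 0.69 (SE 0.22) higher without overlap on one probe, and 0.45 and 0.21 higher with overlap on the others. Immediate early genes had 2 of 14 higher and a median of 0.25, or 0.37 without that pair.

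The leukocyte marker lists had at most 1 tested probe each at an unadjusted p under 0.05. Neutrophil genes had a median change of -0.03, which was 0.01 with slide as a block and 0.15 without control 1 and HFCD 2, so its sign depends on the arrays and the fit. Of 12 tested probes 1 was higher at that p, MMP9, a gelatinase stored in granules. It read 13.07, 12.73, 13.84 and 13.55 in the controls and 14.51, 14.13, 14.26 and 13.72 under HFCD. HFCD 4 lay below control 3, and the change was 0.86 (SE 0.32). LTF, the granule protein lactoferrin, read 12.60, 9.37, 10.20 and 10.58 in the controls and 11.28, 11.80, 11.16 and 11.33 under HFCD, with control 1 above all HFCD arrays and the other controls below them. Its change was 0.70 (SE 0.53), and 1.21 without control 1 and HFCD 2. FCGR3A, the Fc receptor whose probe is the brightest of the list, was 0.22 (SE 0.20) higher with overlap.

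Monocyte and macrophage genes had 1 of 27 probes higher and a median of 0.13 (0.14 without control 1 and HFCD 2), and LYZ, lysozyme, the brightest, read 15.81, 14.15, 14.01 and 13.05 in the controls and 14.59, 14.21, 14.26 and 13.12 under HFCD. Control 1 was the highest and the groups overlapped, and the sign of its change turned with the arrays used: -0.21 (SE 0.57) with all and 0.26 without control 1 and HFCD 2. T cell genes had none of 16 at an unadjusted limma p under 0.05 and a median of 0.21, or 0.10 without control 1 and HFCD 2, with CD3D, a subunit of the T cell receptor complex and the brightest, at a change of 0.09 (SE 0.18). CD8B, a co-receptor chain of cytotoxic T cells, was 0.58 (SE 0.32) and 0.48 (SE 0.27) higher on its 2 probes with overlap, which was 0.33 and 0.29 without control 2 and 0.91 and 0.75 without control 3. B cell genes had none of 4 and a median of 0.02, or 0.13 without control 1 and HFCD 2. With slide as a block the B cell median was -0.08, and within the slides -0.18, -0.24 and -0.01, so its sign depends on the fit. NK and cytotoxic cell genes had none of 4 and a median of 0.18, or 0.09 without both, with GNLY, the pore-forming granulysin and the brightest, at 0.46 (SE 0.24). Eosinophil, basophil and mast cell genes had none of 5 and a median of -0.20, which was 0.28 without control 1 and HFCD 2.

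The platelet, red cell and vessel wall lists varied widely between arrays. All 10 tested platelet probes, of 9 of the 11 listed genes on the array, had negative changes, with a median of -1.07 and none at an unadjusted limma p under 0.05. With slide as a block it was -1.45, and within the slides -6.10, -0.67 and 0.50, so the sign was not the same in all of them, and without control 1 and HFCD 2 it was -1.21. The -6.10 is HFCD 2 against control 3 alone, and the slide at 0.50 holds control 1, so the low arrays enter both. CLU (clusterin, a secreted chaperone stored in platelet granules) gave a change of -1.40 (SE 1.54) and the integrin ITGA2B, a subunit of the fibrinogen receptor, -1.27 (SE 1.54), and both signs turned without HFCD 2 alone, to 0.05 and 0.07. The 2 tested red cell probes, both for HBE1, had a median of -0.59, or -0.83 without control 1 and HFCD 2. Within the slides that median was -5.90, -0.05 and 1.27, and without HFCD 2 alone both probes were at 0.62, so the sign turned there too. Smooth muscle and vessel wall genes had 1 of 17 probes lower at an unadjusted p under 0.05 with a median of -0.62, and without control 1 and HFCD 2, 8 were lower and the median was -0.88. ACTA2, smooth muscle actin, read 5.54, 11.48, 10.18 and 12.61 in the controls and 7.41, 4.81, 8.32 and 10.59 under HFCD, so its low arrays were those low in platelet genes. Liver genes had none of 7 and a median of -0.18, adipose tissue genes none of 6 and -0.35, and skeletal muscle genes 1 of 7 lower and -0.10, and without control 1 and HFCD 2 these medians were 0.11, -0.11 and 0.24. Over the probes that then pass the presence filter, 8, 7 and 10 in number, they were 0.14, -0.09 and -0.16, so the sign for skeletal muscle depends on the probes taken.

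**Figure D3:**
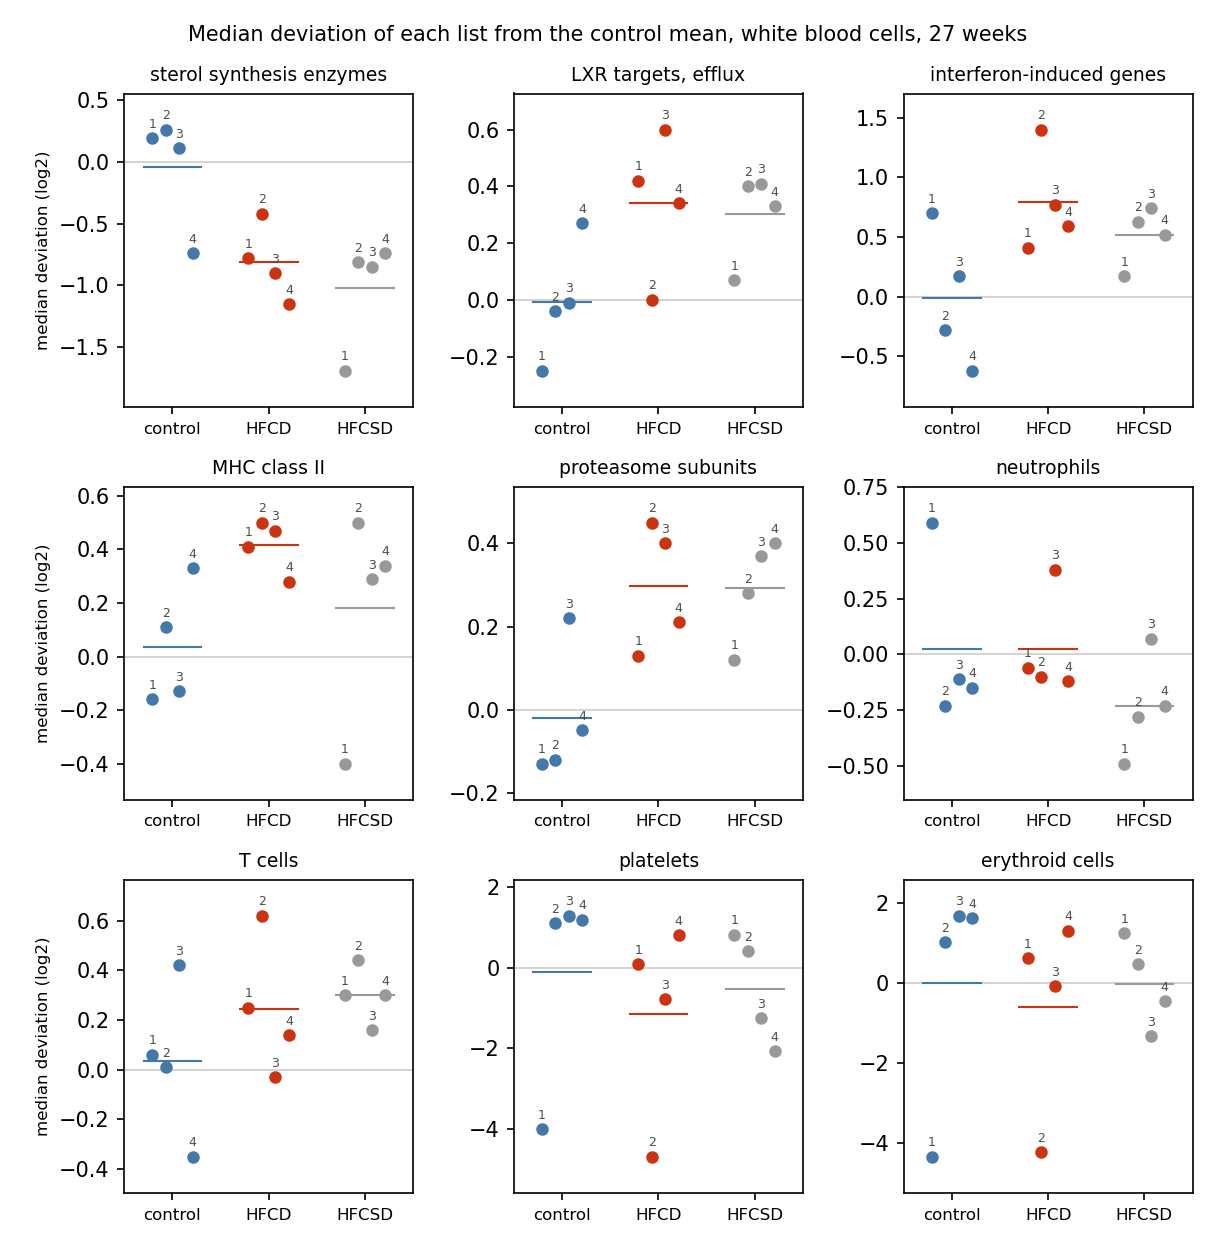
Median deviation (log2) of the tested probes of 9 gene lists from their mean over the control arrays, 1 point per array and numbered by array, with lines at the group means and HFCSD arrays in grey. Control 1 lies at -4.01 and HFCD 2 at -4.69 in the platelet list, while for sterol synthesis enzymes the HFCD arrays lie between -1.15 and -0.42 and control 4, at -0.74, lies among them.

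PFKFB1 and MYO7A, which the study lists for HFCD in white blood cells, were not tested because control 1 and HFCD 2 were not well above background. PFKFB1, which sets the level of a glycolysis activator and whose probe was named by similarity, read 1.63, 6.48, 6.31 and 6.75 in the controls and 4.97, 1.47, 4.62 and 5.59 under HFCD. MYO7A, an unconventional myosin, read 2.18, 5.62, 5.40 and 6.29 in the controls and 4.33, 1.69, 3.93 and 4.78 under HFCD on its brightest probe. For both genes the low arrays were those low in platelet genes, and each was well above background on 3 of 4 arrays per group. Among the other 6 arrays every HFCD value lay below every control value. Without control 1 and HFCD 2 the changes were -1.45 for PFKFB1 (limma adjusted p = 0.963) and -1.42 for MYO7A, and the other HFCD arrays were also below the other controls in summed platelet intensity. The part of platelet genes in these changes was not tested.

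Whole blood at 27 weeks was set beside white blood cells, with 3 HFCD and 4 control arrays, to ask where the HFCD change differed between them. The difference between the HFCD change in white blood cells and that in whole blood, tested with limma on 20070 probes, passed adjustment on 0 probes (0%) and on 268 (1.34%) at an unadjusted p under 0.05. Without 1 array the latter count ranged from 173 (without whole blood HFCD 2) to 1038 (without whole blood HFCD 1). ABCA1 in whole blood was 10.01 (0.27) in controls and 12.43 (0.09) under HFCD (mean (SD)), and the difference of the changes was -0.01 (SE 0.26). For SQLE, whole blood read 7.10 (0.31) and 5.38 (0.25), and the difference was 0.24 (SE 0.34). RSAD2 and CCL8 differed by -0.07 (SE 0.89) and 0.03 (SE 0.73). ANG gave -0.95 in white blood cells and -0.21 in whole blood, a difference of -0.74 (SE 0.46; limma adjusted p = 1). ANG was named for its fall in white blood cells, and that choice favours a difference of this sign. The labels do not match pigs between the sample types, and with 5 pigs per diet some gave both kinds of sample, while the fit treats all arrays as independent. Sample type, extraction kit and scan day cannot be told apart in this comparison.

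The HFCSD arrays, whose pigs ate sucrose besides lard and cholesterol, were compared with the HFCD arrays as the diet most like it. With limma, 0 of 18797 tested probes (0%) differed between HFCSD and HFCD after adjustment and 408 (2.17%) did at an unadjusted p under 0.05. Without 1 array the latter count ranged from 148 (without HFCSD 1) to 1022 (without HFCSD 2), and it was 764 without HFCD 2. ABCA1 read 12.79, 12.28, 12.64 and 12.70 on the HFCSD arrays, which overlap the HFCD arrays, a difference of 0.12 (SE 0.18). SQLE read 5.63, 6.25, 5.95 and 5.76, a difference of -0.14 (SE 0.21), also with overlap. CCL8 read 6.89, 7.34, 6.94 and 7.01, all below the lowest HFCD array, a difference of -1.51 (SE 0.49; limma adjusted p = 1). C1R and C2 gave differences of -0.65 (SE 0.27) and -0.58 (SE 0.24), and the groups overlapped. The interferon list had a median difference of -0.34 with none of its tested probes at an unadjusted limma p under 0.05. The proliferation list had 7 of 16 probes at that p, all lower under HFCSD, with a median of -0.30, and the cytokine, chemokine and receptor list 5 of 45 with a median of -0.17, none past adjustment. The proliferation list's median deviation from the control mean was -0.49, 0.11, 0.35 and -0.08 on the HFCSD arrays. On the HFCD arrays it was 0.33, 0.56, 0.48 and 0.17, so the groups overlapped, with HFCSD 1 the lowest.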

How the data were processed

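Blood RNA was read on Agilent porcine arrays in 1 colour. The authors deposited, per array, the spot intensity that Feature Extraction wrote (10.5.1.1 in the files, 9.5.3.1 in the labels), background-subtracted within the array. The deposited series table holds intensity quantile normalized by the authors on a linear scale, and served as an alternative. The 43603 probes were put on the log2 scale, quantile normalized over 45 arrays, and spots marked as outliers left out. A probe was tested if well above background on every usable array of HFCD or of control, with at least 2 usable arrays per group. limma 3.58.1 (R 4.3.3) was fitted to the 12 white blood cell arrays in 3 diet groups, two-sided, with Benjamini-Hochberg adjustment at 0.05, and to 22 arrays for the difference from whole blood. Tables and figures used Python 3.11.15, numpy 2.4.6, pandas 2.3.3 and matplotlib 3.10.9. The arrays lay on 3 slides, each with HFCD and control arrays, and were scanned on 1 day.

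The 4086 probes with 1 gene symbol got it from accessions, gene names or, for 1154, a description of similarity. Genes named in the text are every probe past adjustment (of unnamed ones 2 that rose), the 12 largest rises and falls among named probes with groups apart and an unadjusted p under 0.05, the 3 largest changes and, for cell types, the brightest probe of each of 29 gene lists, and genes the study lists, and not all of these are given, some genes being withheld from the text. MSMO1, HMGCS1, OAS1, OAS2, IRF9 and TAP1 were named after their values were seen. The arrays and lists were chosen with earlier results of these data known. Alternatives were the 75th percentile, quantile normalization over 12 arrays, normexp with an offset of 50, the series table, other presence filters, only the compared groups, all 45 arrays, the methods' t-test, replicate or slide as a block and each array left out, and, chosen after seeing the data, both low arrays left out and the platelet median as a covariate.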

Additional observations from a re-analysis of the deposited data

Results flagged for a closer look

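In each group of 4 arrays, the gap between the highest or lowest array and its nearest neighbour was divided by the group's range, for the list medians and the probes named above, and 20 of 208 groups passed the critical value of Dixon's test. Chance flags about 1 in 20 groups. Control 1 was the array that stood off in 14 of the 20 and HFCD 2 in 2.

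Control 1 was low in the platelet list (ratio 0.964) and the erythroid list (0.889). The same array was low in PF4 (0.995), CLU (0.981), ITGA2B (0.866) and VWF (0.854), in both HBE1 probes (0.906 and 0.86) and in PFKFB1 (0.914). It was also low in the glycolysis list, at -0.39 against 0.05 to 0.08 (0.936), and in SLA-DQB1, at 12.08 against 13.56 to 13.68 (0.925). It was high in the neutrophil list, at 0.59 against -0.23 to -0.11 (0.854), in CASP1 (0.85) and in an NFKBIA probe (0.854).

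Among the other controls, control 4 was low in sterol synthesis enzymes, at -0.74 against 0.11 to 0.26 (0.85), and control 2 in C1R, at 8.31 against 8.78 to 8.87 (0.839). HFCD 2 was high in CD1D, at 11.86 against 11.21 to 11.24 (0.954), and low in KLF7 (0.84). HFCD 3 was high in the neutrophil list, at 0.38 against -0.12 to -0.06 (0.88), and low in PCD1B, at 4.81 against 6.25 to 6.47 (0.867).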

How the results depend on the processing

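The 5 probes past adjustment became 3 with normexp, 3 with the weaker presence flag, 2 with no filter on dim probes, 9 with all 45 arrays in 1 fit, 3 with the methods' t-test adjusted and 3 with slide as a block, and 2 to 7 without 1 array. With the replicate number as a block the count was 4. Deviations of control and HFCD arrays with the same number correlated across 18125 probes at -0.28, -0.12, -0.32 and 0.67, so pairing by number was not shown, and genes are not independent replicates. The 118 probes of the methods' criterion became 50 with normexp, 221 with the weaker flag and 231 with no filter, and 76 to 246 without 1 array (76 without HFCD 2, 246 without control 1). The difference from whole blood stayed at 0 probes in the settings tried, and was 0 to 1 without 1 array (1 without whole blood HFCD 1, and 1 without whole blood HFCD 2). HFCSD against HFCD gave 1 probe with no filter and 0 to 0 without 1 array. The settings chosen after seeing the data gave 4 probes past adjustment without control 1 and HFCD 2, of which 2 were among the 5, and 7 with the platelet median as a covariate. Signs turned, without both low arrays, for LYZ (0.26) and, with the covariate, for PF4 (0.21) and HBE1 (0.44 and 0.49). They also turned without 1 array, where changes ranged from -0.61 to 0.31 for LYZ (positive without control 1, and 0.10 without HFCD 4), -0.04 to 0.18 for CD3D (negative without control 4), -1.57 to 0.49 for PF4, -2.16 to 0.62 and -1.91 to 0.62 for HBE1 (one probe also 0.07 without control 3), -2.82 to 0.05 for CLU and -2.68 to 0.07 for ITGA2B, the last 4 genes lowest without control 1 and highest without HFCD 2. The cause was not tested. List medians moved by more than the SD of the list between arrays of a group for sterol synthesis enzymes (-0.41 with normexp) and, without both low arrays, for eosinophils (0.28), MHC class I (0.31) and proliferation (0.29). Medians that moved by less than that SD could still turn sign, as for liver genes (0.14 without both low arrays). Dim probes limit precision: with normexp the change was -0.30 for the dimmer CYP51 probe, -0.33 for KLF7, -0.13 for NDRG2, 0.61 for PCD1B, 0.38 for TLR8 and 1.42 for the dimmer CXCL10 probe. Without 1 array the change ranged from -3.06 to -0.14 for VWF, -3.64 to -1.18 for the first ACTA2 probe, 0.27 to 1.34 for LTF, 0.11 to 0.36 for FCGR3A and 0.68 to 1.47 for IL10, and without HFCD 2 it was 0.31 for the brighter FASN probe, 1.71 for the brighter CXCL10 probe and 0.44 for the highest SLA-DRA probe.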
